A study of Rattus norvegicus with 24 samples.

Results

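The genes described here each stepped down in the rat rostral posterior hypothalamus (rPH). Their transcript levels were lower in rats exposed to loud noise on 3 or 7 days than in rats exposed on 1 day or none. The levels differed little between 3 and 7 days. The genes were chosen by their measured levels in the groups, gene by gene, from the counts themselves. Counts of 20 rats were divided by the library total and scaled to counts per 1000000 (CPM), and the log2 of the mean CPM was taken in each group. Genes with a mean of at least 5 CPM (12415 of the 32883 genes in the table) and a difference of at most 0.15 between 7 and 3 exposures (10103 genes) were ranked by their step, the lower of the 2 low-exposure groups minus the higher of the 2 repeated-exposure groups on the log2 scale. The first 100 were taken and Gad2, at rank 4 with a step of 0.48, was set aside because it was treated separately, which left 99 members. Because every group of these 20 rats entered the choice, the levels below describe the members, and the falls in those rats are not independent evidence of anything.

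Adult Sprague-Dawley rats, 6 per group, were placed in sound chambers on 7 consecutive days. The C rats heard background noise only, the AS rats 1 loud white noise session, the RS3 rats 3 sessions and the RS7 rats 7 sessions, with the last session on day 7 for all, and brains were taken 24 h later. One library per group was set aside by the rule (rat 20 of C, rat 18 of AS, rat 8 of RS3 and rat 1 of RS7), and these 4 are the only libraries in the series that had no part in choosing the members. The study left out 1 library per group for few reads, or for adapter sequence and high GC content. Its mean normalized counts match those of the 20 rats used here, so these are the same 4 libraries. Each library was made from polyadenylated RNA of 1 rat's tissue block, so fewer cells of a type and less RNA per cell cannot be told apart.

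Repeated exposure to the same stressor usually brings a smaller hormonal response at each repetition, a form of learning called habituation. The posterior hypothalamus is a mixed territory of GABAergic and glutamatergic neurons that lies against the thalamus, with glia and vessels between them. Among the named members, Ntrk3 is the TrkC receptor for neurotrophin-3, Ndnf is a secreted neurotrophic factor, and Cdh9 is a classical cadherin of synaptic adhesion. Myo16 is an unconventional myosin of neurons, Frem3 belongs to a family of extracellular matrix proteins, Col4a1 is a collagen IV chain of the vascular basement membrane, and Ubash3b is a phosphatase that damps tyrosine kinase signaling. Fam104b is little characterized.

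The total counts of the 20 rats lay between 8087697 and 16947298 (median 12385781). The 10 most abundant genes of a library held 12.4% to 20.3% of its counts in the 20 rats, with C rat 21, C rat 22 and RS7 rat 4 the only ones above 18%, and held 25.1%, 46.3%, 24.9% and 33.8% in the left-out rats 20, 18, 8 and 1. AS rat 18 was also the shallowest library, with 4744531 counts. A list of 12 hypothalamic identity genes had none at 0 in any of the 20 rats. Its summed level ran from 1286 to 1764 CPM in C, 1359 to 1729 CPM in AS, 1046 to 1536 CPM in RS3 and 875 to 1315 CPM in RS7. The part of this difference in the step of the members was not tested. Genes listed for the neighboring dorsal thalamus (7 of 11 with an identifier) were also present in every rat, at summed levels from 774 to 1544 CPM. The largest was Slc17a6 (mean 659 CPM), whereas Tcf7l2 and Rora had means of 20.4 and 13.6 CPM. The sum therefore mainly follows Slc17a6 and is not read here as thalamic content.

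Of the 99 members, 8 are named here from the pairs of identifier and symbol in the study's table, which lists the genes that it called in these same rats, and 91 are not named. The named members are thus not a random share of the list. The steps ran from 0.75 to 0.16 with a median of 0.21 on the log2 scale, and 22 of 99 members had a step above 0.3. The last 2 members, at ranks 99 and 100, had steps of 0.162 and 0.162, and the first 2 genes outside, Ctbp2 and a gene without a symbol, had steps of 0.161 and 0.161, so the limit falls in a continuous run of genes.

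**Figure D1:**
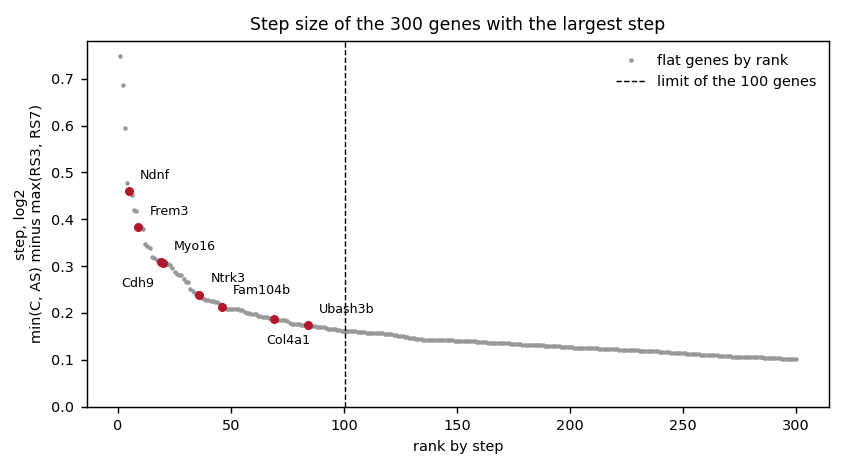
Step on the log2 scale (vertical axis) against rank (horizontal axis) for the 300 genes with the largest step among the flat genes, with the 8 named members in red and a dashed line at the limit of the 100 genes. Only 3 members have a step of 0.5 or more, and the curve has no break at the limit.

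Members drew few counts, which limits the precision of each. Their median was 9.87 CPM (range 5.00 to 742), 50 of 99 (50.5%) lay under 10 CPM, and among all genes with a mean of at least 5 CPM the share under 10 CPM was 16.0%. A member drew 125 counts per rat at the median (range of the means 62.2 to 9352). The coefficient of variation among rats of 1 group had a median of 15.0% over the members, and that of the counting error alone 9.16%.

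In the lists of values that follow, the C rats are 19, 21, 22, 23 and 24, the AS rats 13 to 17, the RS3 rats 7, 9, 10, 11 and 12 and the RS7 rats 2 to 6, in that order. The largest steps belonged to a pair of genes without a symbol. ENSRNOG00000004730 read 32.6, 22.9, 30.1, 15.1 and 34.6 CPM in the C rats and 27.6, 37.6, 28.7, 17.4 and 28.9 CPM in the AS rats. Its RS3 rats read 14.3, 14.0, 19.6, 11.6 and 20.2 CPM and its RS7 rats 23.5, 12.0, 18.7, 16.5 and 9.84 CPM. Its means were 27.1 ± 8.02 CPM in C, 28.1 ± 7.19 CPM in AS, 15.9 ± 3.77 CPM in RS3 and 16.1 ± 5.43 CPM in RS7 (SD, n = 5 per group). The values of the groups overlapped, since C rat 23 and AS rat 16 read lower than several repeatedly exposed rats, and RS7 rat 2 was the highest of the repeated groups. ENSRNOG00000006471 read 31.3, 27.0, 37.3, 27.2 and 46.2 CPM in the C rats and 23.6, 45.5, 43.0, 23.3 and 41.8 CPM in the AS rats. In the RS3 rats it read 20.6, 23.9, 14.0, 25.9 and 20.5 CPM, and in the RS7 rats 13.8, 15.8, 14.1, 33.6 and 22.6 CPM. AS rats 13 and 16 and RS7 rat 5 stood on the other side of the step.

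Ndnf had a step of 0.46, with wide spreads. Ndnf read 11.5, 5.69, 8.56, 9.72 and 12.9 CPM in the C rats and 7.63, 14.4, 12.2, 7.81 and 14.7 CPM in the AS rats. The values were 8.58, 4.96, 5.14, 9.90 and 6.65 CPM in RS3 and 4.72, 6.73, 4.66, 9.25 and 6.40 CPM in RS7. The groups overlapped: C rat 21 read lower than several RS3 and RS7 rats, and RS3 rat 11 and RS7 rat 5 read higher than some C and AS rats. Frem3, of the extracellular matrix, behaved in a like way with a step of 0.38. Frem3 read 9.89, 4.08, 6.74, 4.25 and 8.94 CPM in the C rats and 9.26, 12.4, 8.73, 4.72 and 11.6 CPM in the AS rats. The values were 5.43, 4.31, 5.39, 4.47 and 6.40 CPM in RS3 and 4.79, 3.77, 4.17, 8.08 and 4.29 CPM in RS7. C rats 21 and 23 and AS rat 16 were as low as the repeatedly exposed rats, and the C mean of 6.78 ± 2.65 CPM lay nearer to the RS3 mean of 5.20 ± 0.845 CPM than to the AS mean of 9.35 ± 3.02 CPM (SD, n = 5 per group).

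Cdh9 had a step of 0.31. Cdh9 read 8.16, 10.8, 8.85, 6.71 and 9.65 CPM in the C rats and 9.70, 8.84, 10.9, 8.54 and 10.8 CPM in the AS rats. In the RS3 rats it read 7.60, 4.84, 7.14, 7.01 and 9.03 CPM, and in the RS7 rats 6.77, 6.65, 7.13, 5.86 and 6.09 CPM. RS7 rats 3, 5 and 6 and RS3 rat 9 lay below the lowest C and AS value, that of C rat 23, and RS3 rat 12 reached the C mean of 8.83 ± 1.53 CPM (SD, n = 5). Myo16 had almost the same step, 0.31, with much smaller spreads. Myo16 read 29.5, 26.0, 27.7, 25.3 and 28.4 CPM in the C rats and 26.5, 30.8, 25.8, 25.3 and 31.1 CPM in the AS rats. After 3 exposures the rats read 20.1, 18.0, 24.2, 25.8 and 22.6 CPM, and after 7 exposures 21.4, 22.8, 22.6, 17.8 and 21.9 CPM. Of the 10 repeatedly exposed rats, 9 read lower than every C and AS rat, the exception being RS3 rat 11. The means were 27.4 ± 1.74 CPM in C, 27.9 ± 2.83 CPM in AS, 22.1 ± 3.13 CPM in RS3 and 21.3 ± 2.01 CPM in RS7 (SD, n = 5 per group).

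Ntrk3, the neurotrophin-3 receptor, was the only member in which all 10 RS3 and RS7 rats lay below all 10 C and AS rats, and the only gene of 12415 to do so (0.00805%), by a margin too small to show at the precision given here. Ntrk3 read 34.8, 40.4, 35.7, 33.5 and 34.0 CPM in the C rats and 33.8, 34.9, 35.9, 37.2 and 38.6 CPM in the AS rats. After 3 exposures the rats read 28.0, 28.0, 31.0, 33.5 and 30.8 CPM, and after 7 exposures 32.1, 28.3, 30.7, 24.5 and 25.9 CPM. The highest repeated-exposure rat and the lowest of the others both read 33.5 CPM. Its step was 0.24, or 1.18-fold, and its means were 35.7 ± 2.79 CPM in C, 36.1 ± 1.87 CPM in AS, 30.2 ± 2.32 CPM in RS3 and 28.3 ± 3.16 CPM in RS7 (SD, n = 5 per group). With normalization by the trimmed mean of M values (TMM), 0 members and 0 genes in all were apart, so the separation of Ntrk3 was lost.

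Fam104b had a step of 0.21. Fam104b read 16.2, 18.9, 16.5, 16.6 and 18.7 CPM in the C rats and 15.9, 15.4, 14.2, 16.7 and 16.5 CPM in the AS rats. Its RS3 rats read 12.9, 13.6, 14.5, 12.8 and 13.9 CPM and its RS7 rats 13.9, 13.6, 14.7, 13.1 and 11.9 CPM. C was above AS here, and 8 of the 10 repeatedly exposed rats lay below every C and AS rat. Its spread within groups, a coefficient of variation of 6.81%, was no larger than its counting error of 7.38%.

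Col4a1, of the basement membrane, had a step of 0.19. Col4a1 read 55.1, 60.7, 54.4, 64.0 and 52.2 CPM in the C rats and 49.6, 58.9, 56.6, 59.1 and 56.2 CPM in the AS rats. The values were 55.7, 43.3, 50.2, 51.9 and 45.2 CPM in RS3 and 48.0, 51.0, 46.9, 48.6 and 49.7 CPM in RS7. RS3 rat 7 lay among the C and AS rats, and AS rat 13 among the repeatedly exposed rats. The means were 57.3 ± 4.88 CPM in C, 56.1 ± 3.86 CPM in AS, 49.3 ± 5.03 CPM in RS3 and 48.8 ± 1.59 CPM in RS7 (SD, n = 5 per group). Ubash3b had the smallest step of the named members, 0.17, where AS stood above C: it read 39.3, 37.5, 39.9, 31.2 and 49.4 CPM in the C rats and 50.4, 52.9, 51.7, 39.9 and 55.3 CPM in the AS rats. After 3 exposures the rats read 31.5, 30.7, 34.4, 38.3 and 40.0 CPM, and after 7 exposures 36.9, 29.0, 32.3, 29.3 and 32.9 CPM. AS rat 16 alone of its group lay within the C range, and C rat 23 lay among the RS3 and RS7 rats.

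**Figure D2:**
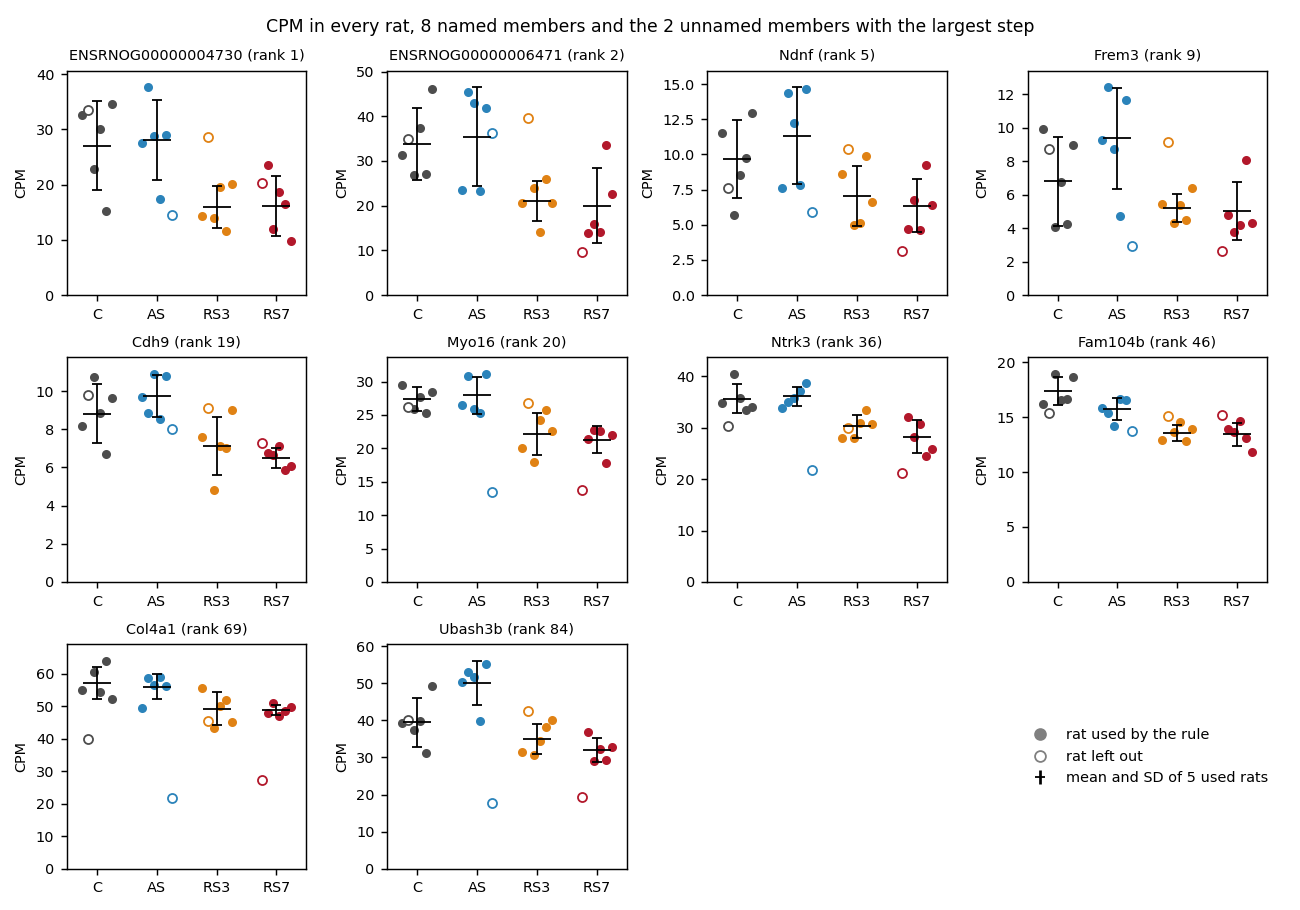
CPM (vertical axis, from 0) in each of the 24 rats by group for the 8 named members and the 2 unnamed members with the largest step, with filled points for rats used by the rule, open points for the 4 left-out rats, and the mean and SD of the 5 used rats in black. Ntrk3 is the one panel in which the filled points of RS3 and RS7 all lie below those of C and AS. The open point of RS3 rat 8 lies above the filled RS3 points in Ndnf, Frem3, Cdh9, Myo16, Fam104b and the 2 unnamed members, but not in Ntrk3 or Col4a1.

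Within the limits that the rule set, the members' levels after 7 and 3 exposures differed by -0.15 to 0.09 on the log2 scale. With library totals 77 of 99 members were lower in RS7 than in RS3, against 66.7% of the 10103 flat genes, whereas in the TMM-scaled edgeR fit 39 of 99 had a log2 change below 0, so the direction of this small difference depends on the scaling. Between C and AS the members ran from -0.34 to 0.46 by library totals (AS minus C). Their median was -0.01 by library totals and -0.07 in the TMM-scaled fit. With library totals 57 of 99 members were lower in AS than in C, against 28.2% of the flat genes, whose median was 0.06. In the TMM-scaled fit 85 of 99 members had a log2 change below 0, against 50.7% of all genes. By either scaling more members were thus lower in AS than in C than were higher, by a small amount at the median. No member was called between C and AS, and both groups entered the rule.

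Tests over all 16202 genes that passed the count filter are given as a description of the list, since the rule used these contrasts. The study compared its groups in pairs, whereas the comparison of RS3 with RS7 against C with AS follows the step of the rule. In the 20 rats with edgeR's quasi-likelihood test (adjusted p of 0.05 or less), 21 of 99 members were called lower in RS3 with RS7 than in C with AS, where 0.63% of all genes were called lower, and 0 members were called higher. At an unadjusted p under 0.05, 94 members were lower, against 8.69% of all genes. Of the 21, 6 are named here (Cdh9, Myo16, Ntrk3, Fam104b, Col4a1 and Ubash3b) and 15 are not, and the 21 log2 changes ran from -0.77 to -0.21. Ndnf and Frem3, with log2 changes of -0.66 and -0.63, were not called. The median log2 change over the 99 members was -0.28, and over all genes tested -0.01.

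Group by group, few members were called. In the AS versus RS7 group comparison 1 member, Ubash3b, was called lower (log2 change -0.58), where 0.481% of all genes were. At an unadjusted p under 0.05, 35 members were lower, against 7.88% of all genes. For C versus RS7, edgeR called 0 members (0.037% of all genes called lower) and DESeq2 called 6 (1.62% of all genes called in either direction), while 72 were lower at an unadjusted p under 0.05 (9.04% of all genes). C versus RS3 gave 0 members with edgeR (0% of all genes), 75 at an unadjusted p under 0.05 (8.4% of all genes), and 4 with DESeq2 (0.144% of all genes called in either direction). AS versus RS3 gave 0 with edgeR (0% of all genes) and with DESeq2, with 35 at an unadjusted p under 0.05 (2.25% of all genes). C versus AS gave 0 members with either tool (0% of all genes), with 3 at an unadjusted p under 0.05, 2 of them lower (5.44% of all genes lower), and RS3 versus RS7 gave 0 with either tool (0% of all genes), with 0 at an unadjusted p under 0.05 (3.83% of all genes lower). These comparisons share their groups' rats and are not separate evidence.

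The count of called members turned on single rats, and so did the share of all genes called in either direction, which was 1.85% with all 20 rats. It was 50 members without RS7 rat 4 (4.12% of all genes) and 40 without C rat 23 (3.56%), 64 without both (8.1%), and 5 without AS rat 17 (0.38%). Without C rats 21 and 22 and RS7 rat 4, the libraries with the largest share of counts in their 10 most abundant genes, 7 members were called (0.578%).

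The members' level in a rat was summarized as the median over the 99 members of log2(CPM + 0.5) minus each gene's mean over the 20 rats, less the same median over all 12415 genes, so that a shift of the whole library cancels. It ran from 0.00 to 0.33 in C, from -0.02 to 0.19 in AS, from -0.31 to -0.07 in RS3 and from -0.28 to 0.08 in RS7. C rat 23 and AS rat 13 were the lowest of their groups, and RS7 rat 4 the highest of the repeatedly exposed rats. The rats with a large share of counts in their 10 most abundant genes were high in their groups: C rats 21 and 22 stood at 0.33 and 0.28 and RS7 rat 4 at 0.08. Without these 3 rats the levels were 0.00 to 0.17 in C and -0.28 to -0.07 in RS7. Over the 20 rats the deviations of the level and of that share from their group means had r = 0.60 and rho = 0.38, and r = 0.41 without the 2 rats farthest from the median share (C rat 22 and RS7 rat 4), as a description.

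**Figure D3:**
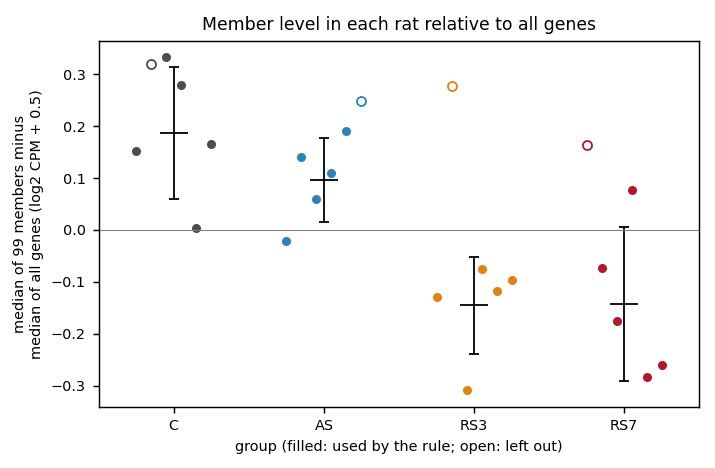
Median log2(CPM + 0.5) of the 99 members in each rat relative to their mean over the 20 rats, minus the same median over all genes (vertical axis), by group, with filled points for the rats used by the rule, open points for the left-out rats, and mean and SD of the filled points in black. The filled points follow the rule by construction, and the open points of all 4 groups, at 0.16 to 0.32, lie above 0.

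The 4 left-out rats, whose libraries the study had left out for quality, hold the only measurement of the step that was independent of the choice. Their member levels, relative to all genes, were 0.32 in C rat 20, 0.25 in AS rat 18, 0.28 in RS3 rat 8 and 0.16 in RS7 rat 1. RS3 rat 8 therefore stood with the C rats, above all 5 RS3 rats used by the rule, and RS7 rat 1 stood above all 5 RS7 rats. All 4 libraries had a large share of counts in their 10 most abundant genes, and the part of this in their levels was not tested.

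Gene by gene, the mean log2(CPM + 0.5) of RS3 rat 8 and RS7 rat 1 was compared with that of C rat 20 and AS rat 18. With TMM scaling 67 of 99 members were below 0 and their median was -0.08, where 46.8% of the 12415 genes were below 0 with a median of 0.02. With library totals 36 of 99 members were below 0 with a median of 0.11, where 18.1% of all genes were below 0 with a median of 0.21, so the sign of the median depends on the scaling, while the members lay 0.10 lower than all genes under both. The step-up genes of the mirrored rule (100 genes) had 13 below 0 and a median of 0.43 with TMM scaling. With either scaling the distance from all genes was smaller than the median step of 0.21 by which the members were chosen. The step is an unlike measure, since it takes the nearest groups and is not relative to all genes. In the TMM-scaled edgeR fits the members' median log2 change was -0.28 in the 20 rats and -0.11 in the left-out rats. Over all genes tested it was -0.01 in each.

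The difference was unequal among the pairs of rats. With TMM scaling the medians over members were -0.16 for RS7 rat 1 minus C rat 20, -0.15 for RS7 rat 1 minus AS rat 18, -0.05 for RS3 rat 8 minus C rat 20 and -0.01 for RS3 rat 8 minus AS rat 18. The RS7 rat gave the lower values and the RS3 rat gave almost none. Both repeatedly exposed rats lay below both others in 7 of 99 members with library totals, against 3.68% of all genes, and in 22 of 99 (22.2%) with TMM scaling, against 10.1%.

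No member passed a test in these rats. With 2 rats on each side edgeR called 0 of 99 members and 0 of 15118 genes, 0 members had an unadjusted p under 0.05 (0.377% of all genes were lower at that level), and DESeq2 called 0 with 1 at an unadjusted p under 0.05. A missing call with so few libraries does not show that the levels were alike.

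Among named members the differences by library totals ran from -0.20 in Ndnf, -0.11 in Cdh9, -0.03 in Frem3 and -0.03 in Ntrk3, through 0.03 in Myo16, 0.06 in Fam104b and 0.11 in Ubash3b to 0.26 in Col4a1. With TMM scaling 7 of these 8 were below 0, the exception being Col4a1 (0.06). ENSRNOG00000006471 went the way of the step most strongly, with 34.8 and 36.3 CPM in C rat 20 and AS rat 18 against 39.6 and 9.72 CPM in RS3 rat 8 and RS7 rat 1, a difference of -0.83 that came from RS7 rat 1 alone.

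**Figure D4:**
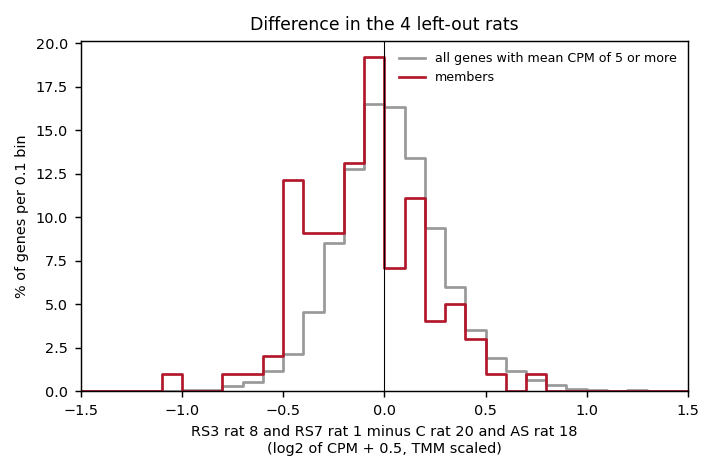
Share of genes (vertical axis, % per bin of 0.1) by the difference between RS3 rat 8 with RS7 rat 1 and C rat 20 with AS rat 18 in log2(CPM + 0.5) with TMM scaling (horizontal axis), for the 99 members in red and all 12415 genes in gray. The members' median lies at -0.08 and that of all genes at 0.02, and the curves overlap over most of their range.

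Variation among rats of the same group did not enter the group means of the rule, and it shows which members moved together. Each gene's log2(CPM + 0.5) was taken as its deviation from the group mean in the 20 rats, where all genes of a rat come from the same library and share its depth. Over the 4851 pairs of members the median correlation was 0.24 and 77.0% of pairs were positive, against 0.12 and 61.8% over all pairs of the 12415 genes. With TMM scaling the medians were 0.27 and 0.00. The genes of the mirrored rule had a higher median, 0.56 by library totals and 0.50 with TMM scaling.

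The members' deviations were also compared with those of single genes. Gad2, the GABA-synthesizing enzyme, and Aqp4, the water channel of astrocyte end-feet, were taken as reference genes after the values had been seen, and their own deviations had r = 0.00 with each other. Of the 99 members, 92 had a correlation above 0 with Gad2 (median 0.40), where 55.5% of all genes did (median 0.03). A correlation above 0.5 was found in 30 members (30.3%) and in 4.16% of all genes. With Aqp4, 72 members lay above 0 (median 0.27), where 42.1% of all genes did (median -0.08). Above 0.5 lay 19 members (19.2%) and 6.61% of all genes. With TMM scaling the median with Aqp4 was 0.35, and 29 members (29.3%) lay above 0.5, where 13.1% of all genes did. Aqp4 is a single gene and not a measure of astrocytes. Of the astrocyte genes, Slc1a2 was called higher in RS3 with RS7 than in C with AS (log2 change 0.22). Aqp4 (-0.13) and Slc1a3 (-0.09) were not called, and the members' correlations with Slc1a2 and Slc1a3 are not given. Above 0.5, 29 members went with Gad2 alone, 18 with Aqp4 alone and 1 with both, and 51 went with neither. Gad2 and Aqp4 were uncorrelated, so a gene close to either is kept from being close to the other. The small overlap therefore follows in part from their choice, and the same split over all genes is not given. Gad2 itself ranked among the 100 genes, and deviations from the group means leave its step out.

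Ubash3b followed Gad2 most closely among the named members, with r = 0.87 (permutation p = 2e-05, adjusted p = 0.0004) and rho = 0.83 (permutation p = 0.0001, adjusted p = 0.0011) by a two-sided test that permuted rats within groups, and r stayed at 0.83 without the 2 rats farthest from the median of Gad2, C rat 23 and RS3 rat 9. Myo16 gave r = 0.69 (permutation p = 0.00124, adjusted p = 0.00827) and rho = 0.65 (permutation p = 0.00505, adjusted p = 0.0253), and r = 0.62 without them. Of the other genes, Frem3 (r = 0.60, adjusted permutation p = 0.037) kept r = 0.53 without those rats but did not pass 0.05 by rank (rho = 0.59, adjusted permutation p = 0.0676). Cdh9 (r = 0.61, adjusted permutation p = 0.0463) did not pass by rank either (rho = 0.48, adjusted permutation p = 0.133) and fell to r = 0.28 without those rats, so that relation rests on them. In the unnamed gene with the largest step, ENSRNOG00000004730, r was 0.77 (adjusted permutation p = 0.003). Adjusted values cover the 20 relations computed, 10 genes by 2 reference genes. They do not cover the choice of the reference genes, which was made after the values had been seen.

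Col4a1 went the other way, with r = 0.67 (permutation p = 0.0048, adjusted p = 0.024) and rho = 0.74 (permutation p = 0.00091, adjusted p = 0.00607) for Aqp4 and r = -0.24 (adjusted permutation p = 0.553) for Gad2. Without the 2 rats farthest from the median of Aqp4, C rats 21 and 24, r with Aqp4 was 0.63. Ntrk3 also went with Aqp4 by Pearson's r (0.60, adjusted permutation p = 0.0312), though not past 0.05 by rank (rho = 0.45, adjusted permutation p = 0.133), and r was 0.50 without C rats 21 and 24. Ndnf, Fam104b and ENSRNOG00000006471 had adjusted permutation p above 0.26 with both reference genes. All these correlations are between levels in whole tissue blocks, and the cell content of the blocks was not measured.

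**Figure D5:**
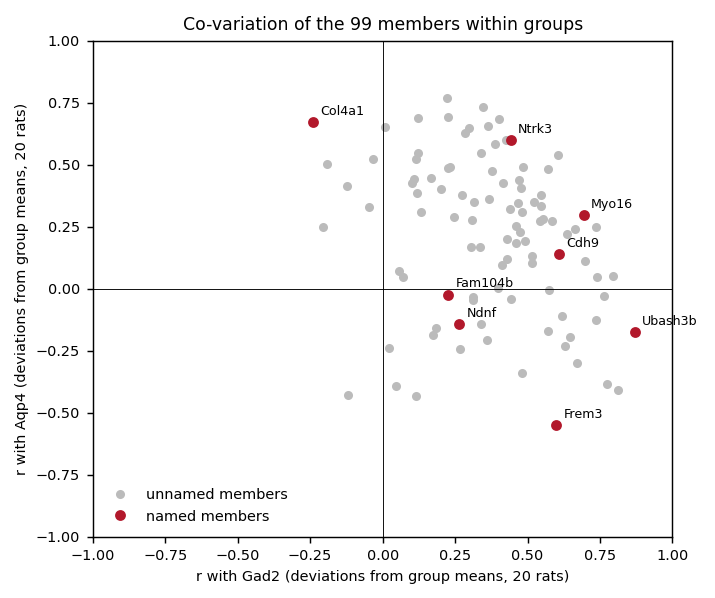
Correlation of each member with Gad2 (horizontal axis) and with Aqp4 (vertical axis) over the deviations of 20 rats from their group means, with the 8 named members in red and the 91 unnamed in gray. Ubash3b lies farthest to the right at 0.87, and Col4a1 lies at -0.24 and 0.67. Of the 99 points, 1 is above 0.5 on both axes, which follows in part from the choice of uncorrelated reference genes.

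The promoters of 4 named members (Ubash3b, Col4a1, Myo16 and Frem3) were in the RefSeq promoter table of build GRCr8, as 250 bases before to 50 after the start. Those of the 2 genes that marked the opposite ends of this co-variation are shown 5′ to 3′, with matches to the GC box (GGGCGG on either strand) in capitals.
Ubash3b promoter, GRCr8, chr8:50428972-50429271, minus strand: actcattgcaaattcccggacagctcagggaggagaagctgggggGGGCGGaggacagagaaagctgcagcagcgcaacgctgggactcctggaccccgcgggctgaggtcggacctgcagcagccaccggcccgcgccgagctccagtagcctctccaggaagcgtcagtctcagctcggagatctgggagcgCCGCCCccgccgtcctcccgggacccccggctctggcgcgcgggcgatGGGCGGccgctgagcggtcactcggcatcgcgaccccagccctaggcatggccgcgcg
Col4a1 promoter, GRCr8, chr16:84885347-84885646, plus strand: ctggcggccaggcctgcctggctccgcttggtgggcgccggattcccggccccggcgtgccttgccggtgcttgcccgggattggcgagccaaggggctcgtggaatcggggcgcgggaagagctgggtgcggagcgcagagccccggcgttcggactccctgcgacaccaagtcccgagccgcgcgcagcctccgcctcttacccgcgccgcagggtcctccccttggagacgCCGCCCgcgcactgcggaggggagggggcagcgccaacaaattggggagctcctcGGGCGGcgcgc
The Ubash3b window held 3 GC boxes and the Col4a1 window 2, and 33.1% of all 33469 promoters held at least 1. Both windows were rich in G and C (71.7% and 75.0%, against a median of 51.7% over all promoters). Frem3 held an E-box, CAGCTG, as did 15.1% of promoters. None of the 4 windows held the glucocorticoid receptor site's AGAACA (20.7% of promoters) or the cAMP response element TGACGTCA (1.83%), searched on both strands. A match describes the letters of these windows and nothing about the factors.

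Gene lists set up for the cell types and functions of the tissue could be matched only to the 8 named members. The lists therefore say nothing about the 91 unnamed members. Their identifiers came from genes that the study called in these rats, so that their counts are not independent evidence. Of 15 GABA neuron genes, 9 had an identifier and 6 were called lower in RS3 with RS7 than in C with AS (0.63% of all genes called lower). Those called were Gad1, Gad2, Slc32a1, Dlx5, Dlx6 and Isl1, with log2 changes from -1.04 to -0.38. All of these but Gad2 differed by more than 0.15 between RS7 and RS3 (RS7 minus RS3 of -0.30 on the log2 scale in Gad1, for instance), which kept them outside the flat pattern, although edgeR called 0 genes between RS3 and RS7. Dlx5 and Dlx6, with means of 2.68 and 2.22 CPM, were also under the minimum of 5 CPM.

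Col4a1 was the only named member among 10 genes of vessels and basement membrane, of which 5 had an identifier and 1, Col4a1 itself, was called lower. The neuropeptide list (14 genes with identifiers, 2 called lower), hypothalamic identity (12, 3 lower), ependyma and cilia (8 of 10, 5 lower), RNA processing and translation (12, 2 lower) and membrane traffic and lipid signaling (12, 4 lower) held no named member. Neither did the astrocyte list (3 of 11 genes, 1 called higher), dorsal thalamus (7 of 11, 4 called higher) or the immediate early list (1 of 6, called lower). Choroid plexus, oligodendrocyte and microglia markers had no identifier in the sources used here, so their levels are not given. The summed level of the dorsal thalamus list, of which Slc17a6 was the largest gene (mean 659 CPM), ran from 774 to 1239 CPM in C and AS. In RS3 and RS7 it ran from 971 to 1544 CPM. That of the GABA neuron genes ran from 684 to 1127 CPM in C and AS and from 552 to 776 CPM in RS3 and RS7. The part of either in the step of the members was not tested.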

How the data were processed

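RNA from the rPH of 24 rats, 6 per group, was sequenced. The authors trimmed reads with Trimmomatic 0.36, mapped them to rn6 with HISAT2 2.0.5 and deposited 1 table of unnormalized counts per Ensembl gene made with featureCounts. Strand handling is not given in the sources used here, so overlapping genes could share reads. The members and gene lists were chosen with earlier results of these data known. Symbols came from the study's table of called genes (808 identifiers, each checked through its mean normalized count within a relative tolerance of 1e-06), which named 778. An item is not reported here. CPM was count over library total. edgeR 4.0.16 in R 4.3.3 (filterByExpr minimum count 10, TMM, 4 groups in 1 fit, quasi-likelihood test, Benjamini-Hochberg threshold 0.05) gave the calls, and DESeq2 1.42.0, limma 3.58.1, scalings, filters and left-out rats the alternatives. The script was tested on simulated counts. Correlations used 100000 permutations. p-values measure the spread between rats. Named genes are the reported members with a symbol and the 2 unnamed members with the largest step.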

Additional observations from a re-analysis of the deposited data

Results flagged for a closer look

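Of 40 sets of 5 rats (10 genes in 4 groups), 2 held a rat whose gap to its nearest neighbor was more than 0.71 of the whole range, where chance flags about 1 in 20 sets. RS7 rat 5 read 8.08 CPM for Frem3, above the next RS7 rat at 4.79 CPM. The same RS7 rat 5 read 17.8 CPM for Myo16, below the next at 21.4 CPM.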

How the results depend on the processing

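Members called in C with AS versus RS3 with RS7 numbered 21 in the reported fit (1.85% of all genes called in either direction), 40 with the DESeq2 Wald test (2.42%), 45 with limma-voom quality weights (4.93%), 3 with all 24 rats (0.625%), and, in fits chosen after seeing the data, 64 without C rat 23 and RS7 rat 4 (8.1%) and 7 without C rats 21 and 22 and RS7 rat 4 (0.578%). Leaving out 1 rat in turn gave 5 to 50. C versus RS7 gave 0 (0.148%), with 6 under DESeq2 (1.62%), 6 under limma-voom (0.636%), 1 without the filter on low counts (0.25%), and 0 to 20 with 1 rat left out. C versus RS3 gave 0 (0%), with 4 under DESeq2 (0.144%) and 0 to 2 with 1 rat left out. AS versus RS7 gave 1 (1.67%), with 7 under DESeq2 (2.25%), 11 under limma-voom (4.76%), 3 without the filter (1.01%), and 1 to 7 with 1 rat left out. AS versus RS3, C versus AS and RS3 versus RS7 gave 0 in every fit run. The cause of these differences was not tested.

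Of the 99 members, 60 stayed among the 100 with TMM scaled library sizes, 34 with a mean CPM of 1 or more, 49 with 10 or more, 64 with a flatness limit of 0.3, 39 with all 24 rats, 57 without C rats 21 and 22 and RS7 rat 4, and 54 to 87 with 1 rat left out (54 without RS3 rat 7). A higher minimum drops the 50 members under 10 CPM by its own construction. Members with groups apart numbered 1, 0 with TMM scaled library sizes, and 1 to 2 with 1 rat left out.

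In the left-out rats, members below 0 numbered 36 (18.1% of all genes), with 67 under TMM scaling (46.8%), 61 with library totals without the 10 most abundant genes (38.7%), and 17 (without C rat 20, 11.1% of all genes) to 87 (without AS rat 18, 76.7%) with 1 rat left out. Their distance from all genes was -0.10, and -0.18 to -0.10 with 1 rat left out. The median pair correlation within groups stayed between 0.20 and 0.26 with 1 rat left out. No paired analysis was possible because each rat carries its own number. At about 10 CPM a member rests on some 125 counts per rat, which limits single genes.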
